A study of Caenorhabditis elegans with 2 samples.

Results

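Peaks of the LIN-26-related zinc-finger protein LIR-3 were examined at 8 Caenorhabditis elegans genes for abundant noncoding RNAs that are made, or are of a type made, by RNA polymerase III. They are rpr-1 (the RNA of RNase P), mrpr-1 (the RNA of RNase MRP), 5 genes for the RNA of the signal recognition particle (SRP), namely srpr-1.1, srpr-1.2, srpr-2.1, srpr-2.2 and srpr-3, and yrn-1 (a Y RNA). These 8 genes were taken by name from the 46926 genes of the Ensembl annotation of WBcel235, of which 31563 remain without the genes for piRNAs. A peak was counted at a gene when its summit lay in the start window, from 500 bp upstream to 200 bp downstream of the annotated gene start. Positions are given on the strand of the gene, with 0 as its first base and negative values upstream. All 8 are annotated as noncoding RNA genes, and each has a run of 4 T at its end, the signal at which RNA polymerase III stops: TTTT was found on the gene strand between 3 bases before and 5 bases after the last base in 8 of 8 genes, against 16.0% of the 31563 genes.

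RNase P is the RNA-protein enzyme that removes the leader from precursor tRNAs, and RNase MRP is a related enzyme that cuts precursor ribosomal RNA. SRP RNA is the scaffold of the particle that recognises signal peptides and brings translating ribosomes to the endoplasmic reticulum, while Y RNAs are short RNAs bound by the Ro60 protein. In vertebrates, RNA polymerase III reaches genes of the RNase P, MRP and Y RNA kind through elements upstream of the start, a proximal sequence element bound by the SNAPc complex and a TATA box, whereas tRNA genes carry their A box and B box inside the gene, where TFIIIC binds.

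Chromatin immunoprecipitation with sequencing used an antibody to GFP on whole L4 hermaphrodites, taken 48 hours after starved L1 larvae were released. The strain, OP312, carries unc-119(ed3) III and the transgene wgIs312, which supplies LIR-3 with GFP and FLAG at its C-terminus. The labels do not name the promoter of the transgene, and no untagged strain is analysed here. There was 1 group of 2 samples labelled as biological replicates, so the report describes peaks and compares kinds of gene, with no test between groups. The relaxed lists, made to hold background regions too, had 17311 peaks in replicate 1, 20601 in replicate 2 and 20360 in the pooled replicates, and 552 passed the submitters' irreproducible discovery rate (IDR) filter, all of them among the 552 strongest pooled peaks. Signal is the authors' score per peak. Its scale is not stated, so each value is given with its rank within its own list, rank 1 being the strongest. Median signals were 20.93 in replicate 1, 17.29 in replicate 2, 31.2 in the pooled list and 120.4 in the IDR list. The lists give no read counts, so sequencing depth is unknown.

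The sequences around the starts show what the genes share and where they differ. Each run below is RefSeq sequence of WBcel235, 5′ to 3′ on the gene strand, from 110 bases before the start to 30 bases into the gene. Capitals mark TATA between -60 and -15 and the letters shared by several of the genes, which are named after the list. They are chrII:7200123-7200262 (plus strand) for mrpr-1, chrIV:7499398-7499537 (plus) for yrn-1, chrIII:4379177-4379316 (minus) for srpr-1.1, chrIII:4369358-4369497 (plus) for srpr-1.2, chrIII:5211110-5211249 (plus) for srpr-2.1, chrIII:5031679-5031818 (minus) for srpr-2.2 and chrV:9293603-9293742 (minus) for srpr-3.
mrpr-1: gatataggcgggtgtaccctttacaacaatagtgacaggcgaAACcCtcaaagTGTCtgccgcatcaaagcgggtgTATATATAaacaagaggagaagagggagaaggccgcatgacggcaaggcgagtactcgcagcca
yrn-1: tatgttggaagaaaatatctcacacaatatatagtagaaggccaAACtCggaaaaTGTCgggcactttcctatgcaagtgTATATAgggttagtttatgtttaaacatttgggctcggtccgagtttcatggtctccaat
srpr-1.1: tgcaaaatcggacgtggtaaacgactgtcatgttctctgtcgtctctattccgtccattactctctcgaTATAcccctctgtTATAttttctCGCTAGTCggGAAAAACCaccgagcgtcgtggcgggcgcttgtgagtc
srpr-1.2: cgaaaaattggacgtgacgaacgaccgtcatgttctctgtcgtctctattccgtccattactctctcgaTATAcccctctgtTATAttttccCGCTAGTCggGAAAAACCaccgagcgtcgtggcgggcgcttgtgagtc
srpr-2.1: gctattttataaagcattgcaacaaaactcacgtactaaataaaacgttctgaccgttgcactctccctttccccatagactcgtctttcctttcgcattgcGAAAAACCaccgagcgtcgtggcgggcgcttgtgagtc
srpr-2.2: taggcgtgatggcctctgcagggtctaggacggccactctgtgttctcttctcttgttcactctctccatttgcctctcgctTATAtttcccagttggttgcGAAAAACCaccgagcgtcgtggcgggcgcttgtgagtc
srpr-3: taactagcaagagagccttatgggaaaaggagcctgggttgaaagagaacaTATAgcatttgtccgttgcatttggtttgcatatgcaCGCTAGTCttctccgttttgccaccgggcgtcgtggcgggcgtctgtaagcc
The mrpr-1 and yrn-1 runs share AACNC, then 6 bases, then TGTC, starting at -68 in mrpr-1 and -66 in yrn-1. The gene rpr-1 holds the same letters at -66, and 0.535% of the 31563 genes hold them on either strand within 110 bases upstream. TATA lay between -60 and -15 in 7 of the 8 genes, against 21.4% of all genes: its first base was at -30 and -28 in both rpr-1 and yrn-1 and at -34, -32 and -30 in mrpr-1. Of the SRP RNA genes, srpr-1.1 and srpr-1.2 had TATA at -41 and -28, srpr-2.2 at -28 and srpr-3 at -59, while srpr-2.1 had none there. The 4 genes from srpr-1.1 to srpr-2.2 have GAAAAACC directly before the start, found on either strand within 110 bases upstream of 1.18% of all genes. A further 8 letters, CGCTAGTC, stand at -18 in srpr-1.1 and srpr-1.2 and at -22 in srpr-3, and occur in that window at 0.0665% of all genes. These 3 shared words were picked after the sequences of the genes had been read, so their shares are a description. A match is not a binding site.

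From 250 bases before to 50 bases after the start, on either strand, the B box (GTTCNANNC) matched 0 of the 8 genes, against 10.7% of all genes. The A box matched srpr-2.1, upstream at -212 and -196, and srpr-3, on the other strand at 0, against 19.4% of all genes. TATA and TTTT matched all 8 genes in that window, but also 69.6% and 99.6% of all genes. Inside yrn-1, past that window, a B box match begins at position 63. A box matches past the window lie at 222 in srpr-2.1 and srpr-2.2 and, on the other strand, at 289 in srpr-3. No match says only that these letters are not in this window.

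The SRP RNA genes are near copies of each other, which bears on how reads can be placed in them. The full genes of 3 of the 5 are printed to show it, again from RefSeq on WBcel235 and on the gene strand: srpr-1.2 at chrIII:4369468-4369766 (plus), with capitals where it is not identical to srpr-1.1, and srpr-2.1 at chrIII:5211220-5211518 (plus) and srpr-3 at chrV:9293334-9293632 (minus), with capitals where they are not identical to srpr-1.2.
srpr-1.2: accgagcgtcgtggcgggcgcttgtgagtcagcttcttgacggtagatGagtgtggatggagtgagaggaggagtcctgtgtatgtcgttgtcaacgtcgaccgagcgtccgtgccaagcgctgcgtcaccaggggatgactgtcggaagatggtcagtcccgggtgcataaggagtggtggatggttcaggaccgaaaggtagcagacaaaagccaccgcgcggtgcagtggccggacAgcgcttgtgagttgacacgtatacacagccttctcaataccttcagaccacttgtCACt
srpr-2.1: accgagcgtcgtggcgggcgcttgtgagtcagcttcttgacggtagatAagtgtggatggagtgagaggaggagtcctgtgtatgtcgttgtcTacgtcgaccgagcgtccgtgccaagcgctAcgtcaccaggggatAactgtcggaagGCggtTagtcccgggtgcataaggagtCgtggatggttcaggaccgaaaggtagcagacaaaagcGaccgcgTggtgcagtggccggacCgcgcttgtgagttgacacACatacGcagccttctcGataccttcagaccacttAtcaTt
srpr-3: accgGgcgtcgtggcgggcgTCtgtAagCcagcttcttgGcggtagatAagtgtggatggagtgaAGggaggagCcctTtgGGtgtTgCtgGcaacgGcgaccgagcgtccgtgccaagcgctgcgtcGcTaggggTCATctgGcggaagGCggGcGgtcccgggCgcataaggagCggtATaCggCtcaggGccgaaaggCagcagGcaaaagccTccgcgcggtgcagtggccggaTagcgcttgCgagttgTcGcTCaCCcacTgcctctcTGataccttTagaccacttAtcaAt
Aligned over their length, srpr-1.1 and srpr-1.2 were 98.3% identical, with a longest identical run of 190 bp, and srpr-2.1 and srpr-2.2 were 99.0% identical, with a run of 158 bp. Over the 6 pairs among these 4 copies, identity was 94.0% to 99.0%. Against each of them srpr-3 was 81.7% to 82.3% identical, with runs of 25 to 30 bp. The first 40 bases were identical in the 4 copies, and srpr-3 differed from srpr-1.1 there by A5G, C21T, T22C, G26A, T29C and A40G, counted from 1 at the first base of the gene. The copies are not all adjacent: srpr-1.1 and srpr-1.2 lie 9142 bp apart, and srpr-2.1 and srpr-2.2 lie 179511 bp apart.

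LIR-3 peaks that IDR kept had their summit in the start window of 4 of the 8 genes: rpr-1, mrpr-1, srpr-1.2 and srpr-2.2. Over the 31563 genes the same was true of 2.45%. Of the other 4, srpr-2.1 had an IDR summit 64 bp beyond the window, srpr-1.1 had one 255 bp beyond it and past the gene end, srpr-3 had only relaxed peaks, and yrn-1 had no peak near it. In the relaxed lists, a summit lay in the window of 6 of 8 genes in replicate 1 (18.2% of all genes), 5 of 8 in replicate 2 (20.7%) and 5 of 8 in the pooled list (20.9%), and 5 of 8 had one in both replicate lists (10.3%). With the window extended to 200 bp past the gene end, a choice made after the data were seen, 6 of 8 genes had an IDR summit, against 3.29% of all genes. Those 6 genes had 7 IDR peaks at or near them. The 8 genes were listed with results on these peaks known, so the counts describe them and no test was made.

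**Figure D1:**
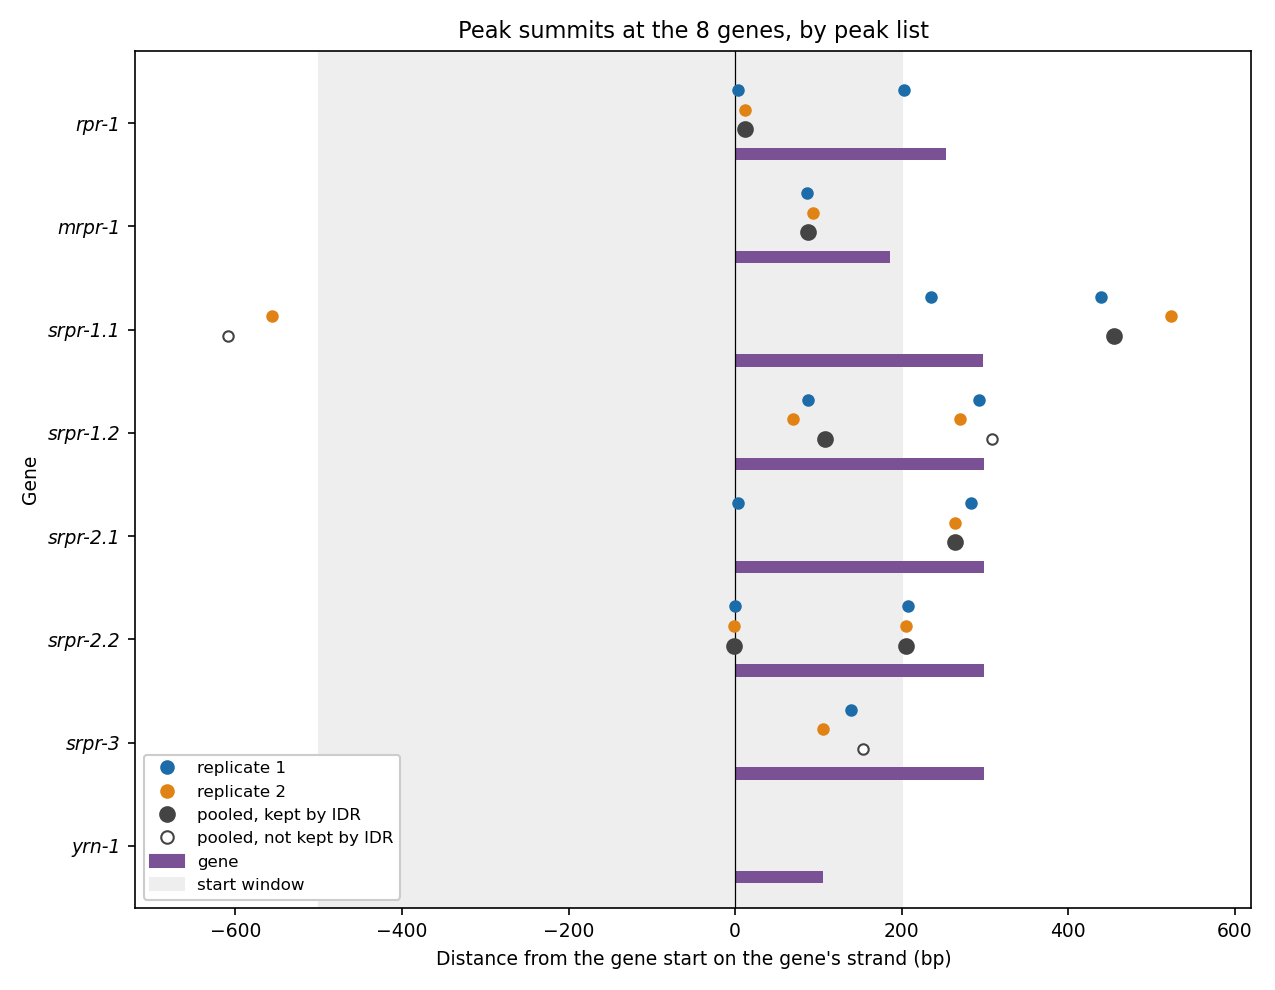
Summit positions of all peaks near each of the 8 genes, in bp from the gene start on the gene's strand (x axis), with 1 row per gene (y axis), bars for the genes, grey for the start window and points for replicate 1, replicate 2 and the pooled list (filled where kept by IDR). In every list, rpr-1, mrpr-1, srpr-1.2 and srpr-2.2 each have a summit in the window. Of these, all but mrpr-1 also have a summit downstream of the window in at least 1 list. The srpr-1.1 summit that IDR kept lies past its gene end, and yrn-1 has no summit.

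The strongest of these peaks was at rpr-1, whose RNA is the catalytic part of RNase P. The gene (WBGene00045238) spans chrI:13463955-13464207 on the plus strand, inside an intron of ints-8, which runs on the opposite strand and codes for an Integrator subunit. Its peak had signal 146.4 and rank 44 in replicate 1, signal 126.8 and rank 41 in replicate 2, and signal 268.8 and rank 42 in the pooled list. The rank was thus almost the same in both replicates, and the pooled peak was in the strongest 7.61% of the IDR list. All ranks given here include peaks on the mitochondrial genome. In the IDR list those had pooled signals of 357.1 to 5093, all above that of rpr-1. The summits lay at position 3 in replicate 1 and at 12 in replicate 2 and in the pooled list, on the first bases of the gene. The peak was 319 bp wide in the pooled list. A width of 416 bp was the most common, at 99.5% of pooled and 82.1% of IDR peaks, and the peak at the start of srpr-2.2 was narrower still, at 104 bp. Replicate 1 listed a further weak summit at position 203, signal 24.34, rank 5270.

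At mrpr-1, the RNA of the rRNA-cutting relative of RNase P, the summit lay in the middle of the gene. The gene (WBGene00045095) spans chrII:7200233-7200418 on the plus strand and lies between protein-coding genes, with the start of pcrg-1 at position 316. Its summits were at 86 in replicate 1, 94 in replicate 2 and 88 in the pooled list, 8 bp apart between replicates. These summits also lie in the start window of pcrg-1, which is on the same strand. Whether the peak belongs to mrpr-1 or to pcrg-1 cannot be told from the lists. The signal was 58.14 in replicate 1 (rank 377), 88.23 in replicate 2 (rank 101) and 152.2 in the pooled list (rank 158). The replicates therefore placed the peak alike but ranked it differently. Every 50-base word of rpr-1 and of mrpr-1 occurs only once in the genome.

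At srpr-1.2 (WBGene00045168, chrIII:4369468-4369766, plus), which lies in an intron of ckb-2 on the same strand, the IDR summit was inside the gene at position 108. Its signal was 74.85 in replicate 1 (rank 195, position 88), 49.01 in replicate 2 (rank 433, position 70) and 123.5 in the pooled list (rank 256). A weaker summit lay at the gene end in all 3 relaxed lists: signal 39.49 in replicate 1 (rank 1029, position 293), 40.39 in replicate 2 (rank 715, position 270) and 44.96 in the pooled list (rank 3262, position 309). IDR did not keep it. The weaker summit followed the first at a like distance in each list: 88 to 293, 70 to 270 and 108 to 309. At rpr-1 the weak replicate 1 summit, at 203 after the one at 3, did so too. Whether the weaker srpr-1.2 summit marks a separate site at the gene end was not tested.

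The gene srpr-2.2 (WBGene00195017, chrIII:5031410-5031708, minus) lies in an intron of klp-6, a kinesin gene on the opposite strand, and had a pair of IDR peaks, at its first base and within the gene. The summit at the start had signal 75.55 in replicate 1 (rank 189, position 0), 68.34 in replicate 2 (rank 202, position -1) and 143.1 in the pooled list (rank 183, position -1). The summit inside the gene, 5 bp beyond the window, had signal 89.18 in replicate 1 (rank 133, position 207), 71.47 in replicate 2 (rank 184, position 205) and 156.8 in the pooled list (rank 141, position 205). Replicates placed these summits 1 and 2 bp apart, and both replicates ranked the inner peak above the one at the start. Such a spacing between neighbouring summits is not particular to this gene. Other IDR summits lie in pairs at a like distance, for example chrII:14251596 and chrII:14251796, or chrIII:4282177 and chrIII:4282377. Whether the summits at srpr-2.2 mark separate sites was not tested. The noncoding gene R144.16 overlaps the start, with its own start at -109, and shares the first of these peaks.

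Its near copy srpr-2.1 (WBGene00195016, chrIII:5211220-5211518, plus), which lies in no protein-coding gene, had 1 IDR peak, with its summit at position 264, 64 bp beyond the window. The signal there was 56.24 in replicate 1 (rank 426, position 283), 61.84 in replicate 2 (rank 249, position 264) and 115.6 in the pooled list (rank 305). Replicate 1 alone listed a peak at the start as well, signal 49, rank 571, position 4. At this copy both replicates thus had a peak near the gene end, and the peak at the start was in 1 of the 2 lists.

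At srpr-1.1 (WBGene00045189, chrIII:4378909-4379206, minus) no list had a summit in the start window. The nearest IDR summit was at position 455, which is 158 bp past the gene end and in the coding sequence of pals-26, a gene on the other strand that ends next to srpr-1.1. Its peak, of which 50 bp overlap srpr-1.1, had signal 91.26 in replicate 1 (rank 122, position 439), 82.73 in replicate 2 (rank 122, position 523) and 157.7 in the pooled list (rank 134). The replicate summits were 84 bp apart, more than at the other 5 genes with an IDR peak, where the distance was 1 to 19 bp. Within the gene replicate 1 listed a weak summit at 235, signal 24.12, rank 5444. Weak summits upstream, at -556 in replicate 2 (signal 18.4, rank 8565) and at -609 in the pooled list (signal 31.88, rank 9545), were just above the median signals of their lists. Whether the peak past the end belongs to srpr-1.1 or to pals-26 cannot be told from the lists.

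The gene srpr-3 (WBGene00195018, chrV:9293334-9293632, minus), the most divergent SRP RNA copy, had relaxed peaks only. Its signal was 25.98 in replicate 1 (rank 4173, position 139), 34.47 in replicate 2 (rank 1132, position 105) and 60.35 in the pooled list (rank 1315, position 154). These ranks are in the strongest 24.1% of replicate 1, 5.49% of replicate 2 and 6.46% of the pooled list, so the replicates differed at this gene. The −log10 q-value was 0.363 in replicate 1, 1.86 in replicate 2 and 1.53 in the pooled list. The strongest peaks of those lists share 3.02, 2.44 and 3.18. The nearest IDR summit was 24595 bp away. The noncoding gene F44A2.13 is annotated over the same bases.

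At yrn-1 (WBGene00006967, chrIV:7499508-7499612, plus), in an intron of F55G1.15 on the opposite strand, none of the 4 lists had a summit in the window. The nearest summits were 3786 bp away in replicate 1, 6599 bp in replicate 2, 3725 bp in the pooled list and 74572 bp in the IDR list. The noncoding gene F55G1.20 overlaps yrn-1 on the other strand. This gene thus shares TATA and the upstream letters of rpr-1 and mrpr-1 but had no listed peak, not even a relaxed one. All of its 50-base words, and all of those of srpr-3, occur once in the genome. A missing peak gives no upper limit on binding, because the lists hold no counts.

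Summit positions at the SRP RNA genes were next set beside the sequence that these genes share. In the gene bodies, the share of 50-base words that occur once in the genome was 23.3% for srpr-1.1 (58 of 249 words), 41.2% for srpr-1.2 (103 of 250), 38.8% for srpr-2.1 (97 of 250) and 40.4% for srpr-2.2 (101 of 250). In the 200 bp after the gene end it was 100% for each. In the 200 bp before the start it was 89.4% for srpr-1.1 and srpr-1.2 and 100% for the others. Within 50 bp of the srpr-1.2 summit the share was 21.2% in replicate 1, 55.8% in replicate 2 and 0% in the pooled list, so it depended on where the summit was placed. At the pooled summits of srpr-2.2 it was 15.4% at the inner one and 75.0% at the one at the start. It was 100% at the IDR summits of srpr-1.1, srpr-2.1, rpr-1 and mrpr-1.

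Peaks over shared sequence were uncommon in the IDR list as a whole. Under 50% of words occurred once at 2 of the 7 IDR peaks at or near these genes (28.6%), against 36 of all 552 (6.52%), and the srpr-1.2 summit, as placed in the pooled list, was the only one of the 552 with none. All words occurred once at 4 of the 7 (57.1%), against 424 of the 552 (76.8%). The sources used here give neither the read length nor the handling of reads that map to several places, and the part of this sequence sharing in the position and strength of the SRP RNA peaks was not tested. Reads from 1 copy and from another cannot be told apart over identical runs, so it is uncertain which copy the srpr-1.2 peak and the inner srpr-2.2 peak come from.

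**Figure D2:**
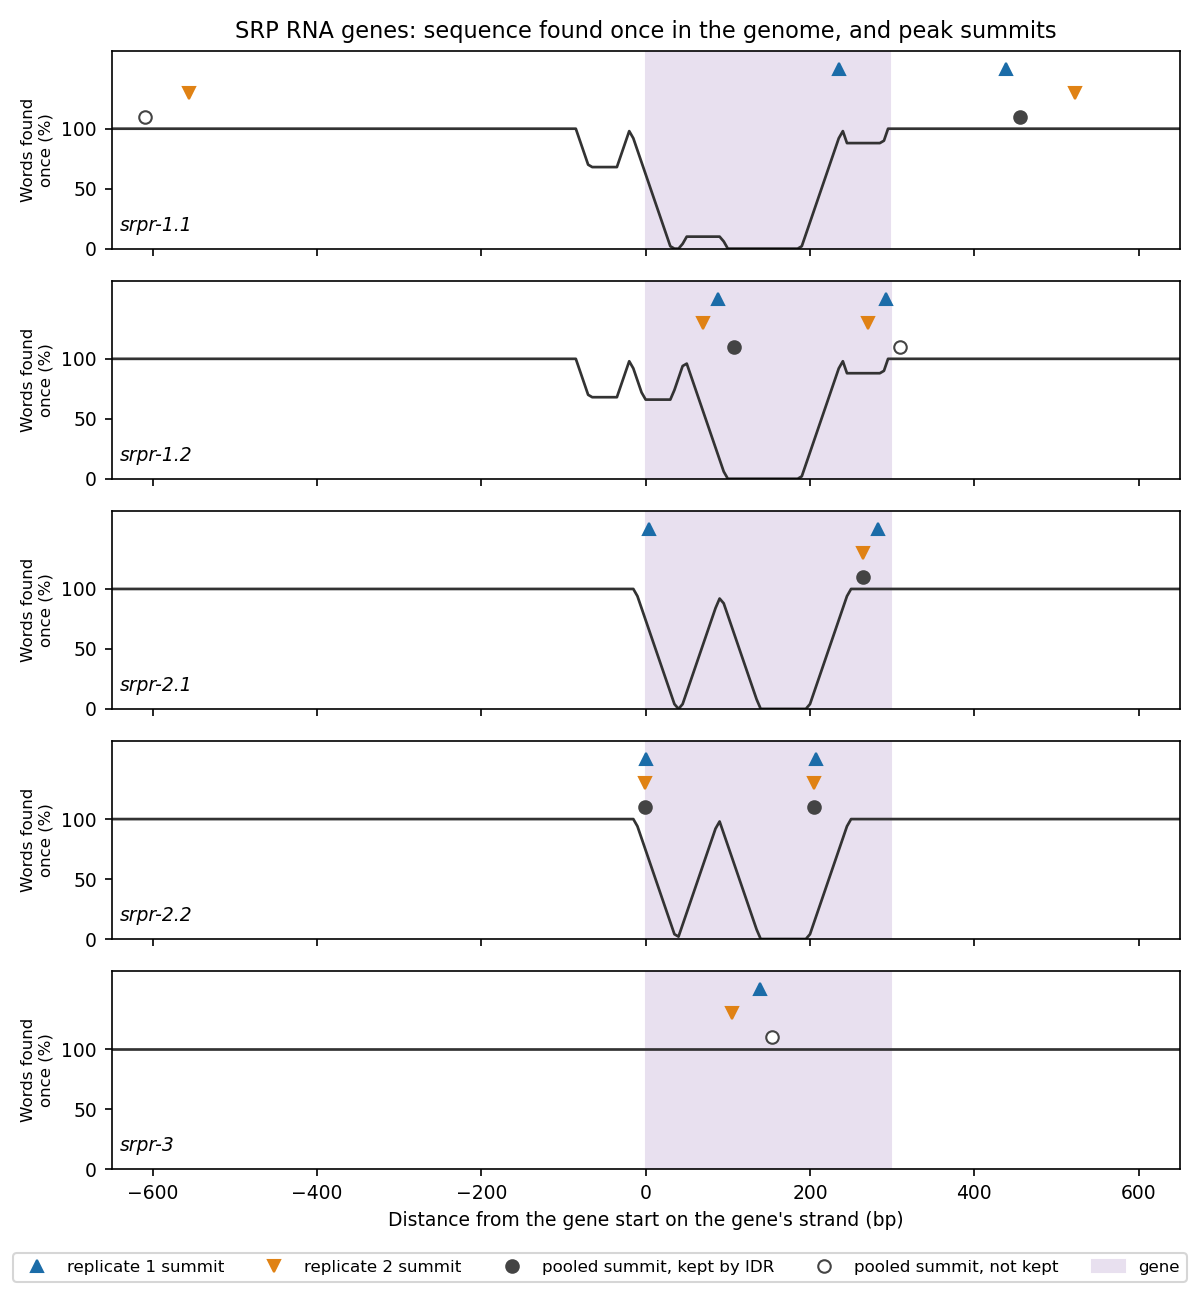
Share of 50-base words found once in the genome (y axis, %) along each SRP RNA gene, by distance from the gene start in bp (x axis), with the gene shaded and the peak summits of replicate 1, replicate 2 and the pooled list above the lines. The line falls to 0 inside the 4 near copies and stays at 100% in srpr-3; the srpr-1.2 IDR summit (pooled position) lies over sequence at 0%, and the srpr-1.1 and srpr-2.1 ones over sequence at 100%.

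Across the 7 IDR peaks, the replicate lists ranked the genes in part alike. The rpr-1 peak was the strongest of the 7 in both replicates. The lowest of the 7 was the srpr-2.1 peak in replicate 1 (56.24) and the srpr-1.2 peak in replicate 2 (49.01). The mrpr-1 peak was the second weakest of the 7 in replicate 1, at rank 377, and the second strongest in replicate 2, at rank 101. The order of the 6 peaks below rpr-1, which lie between 115.6 and 157.7 in the pooled list, thus differed between the replicates.

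**Figure D3:**
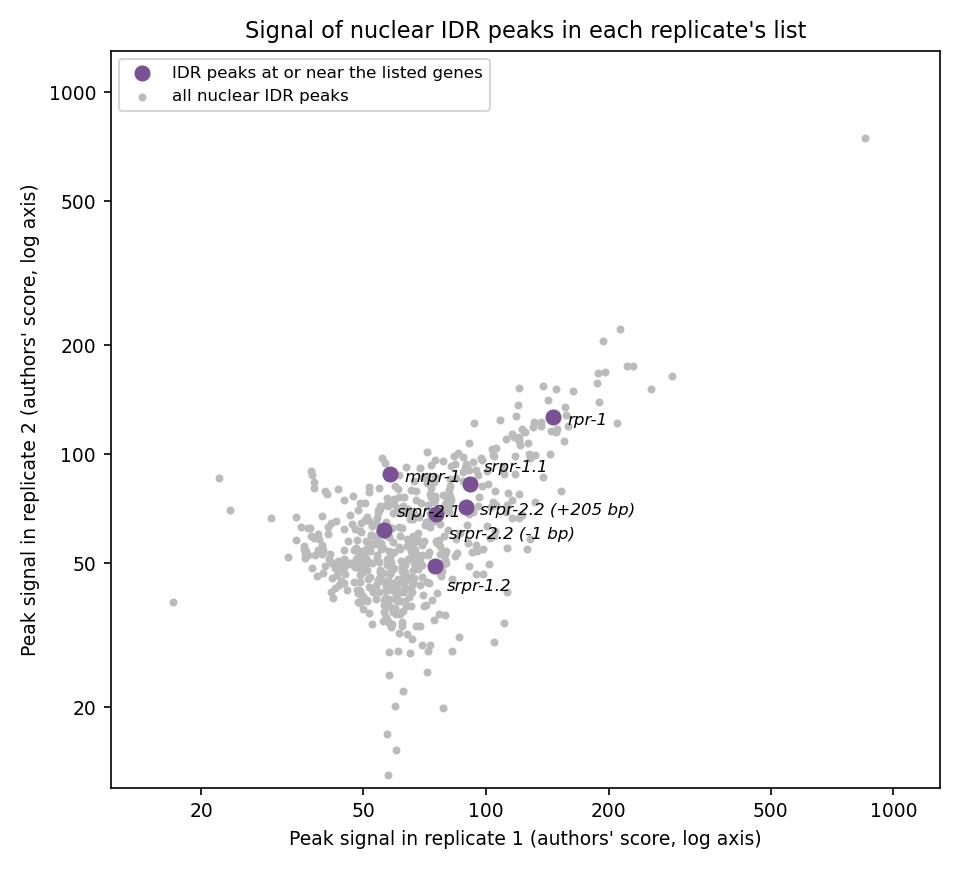
Signal of each nuclear IDR peak in replicate 1 (x axis, authors' score, log scale) and in replicate 2 (y axis, authors' score, log scale), with the 7 peaks at or near the listed genes in purple and the 529 nuclear IDR peaks that overlap a peak in both lists in grey. The rpr-1 peak, at 146.4 and 126.8, lies toward the strong end, and the other 6 lie in the body of the cloud.

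Set beside other short noncoding genes, the 8 genes had an IDR summit in the start window at 50%, against 36.3% of nuclear tRNA genes (222 of 612), 17.3% of snoRNA genes (60 of 346) and 9.3% of snRNA genes (12 of 129). Among protein-coding genes the share was 0.976% (195 of 19973). In both replicate lists the order was different: 62.5% of the 8 genes, against 73.4% of tRNA genes, 28.6% of snoRNA genes, 22.5% of snRNA genes and 8.09% of protein-coding genes. The pooled relaxed list gave 62.5%, against 83.2%, 46.8%, 35.7% and 18.8% in the same order of classes. With only 8 genes the share moves in coarse steps, and genes within a class share sequence and lie in clusters, so these differences were not tested. In all 3 counts the 8 genes lay above snRNA, snoRNA and protein-coding genes, and they lay above tRNA genes in the IDR list only.

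**Figure D4:**
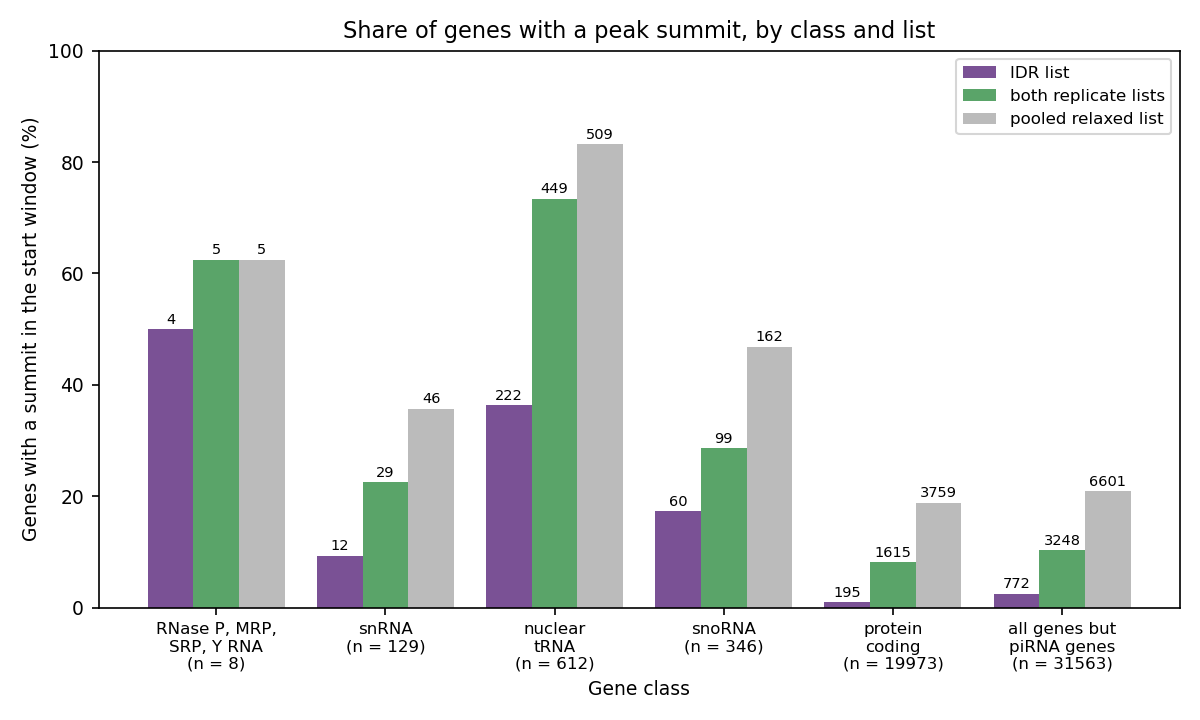
Percentage of genes (y axis) with a summit in the start window for each class of gene (x axis), in the IDR list, in both replicate lists and in the pooled relaxed list, with the number of genes above each bar. The 8 genes stand at 50%, 62.5% and 62.5%, and tRNA genes at 36.3%, 73.4% and 83.2%.

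The placing and strength of these peaks were also set beside those classes. The 4 genes with an IDR summit in the window had it at -1 to 108, with a median of 50. The median was 15 for tRNA genes, -29.5 for snoRNA genes and 76.0 for snRNA genes. The window ends at 200 bp and so leaves out IDR summits at 205 (srpr-2.2), 264 (srpr-2.1) and 455 (srpr-1.1). The summit at 205 had a higher pooled signal, 156.8, than the one counted for srpr-2.2, 143.1. The positions, signals and ranks given here for the 4 genes are thus those of summits near the start only. Of the summits at the 4 genes, 1 lay upstream of the start, against 73 of the 222 at tRNA genes, 45 of the 60 at snoRNA genes and 3 of the 12 at snRNA genes. Their median pooled signal was 147.6 (range 123.5 to 268.8), against 120.2 at tRNA genes, 155.3 at snoRNA genes and 108.3 at snRNA genes. The median rank in the IDR list was 170.5 for the 4 genes, 277.5 for tRNA genes, 146.5 for snoRNA genes and 356.5 for snRNA genes. The highest tRNA signal, 272.7, was close to that of rpr-1. Among 554 other noncoding genes with an IDR summit, the nearest to the median signals of the 4 genes were the tRNA gene K09A11.t1 (72.75 in replicate 1, 77.79 in replicate 2 and 152.3 in the pooled list) and the tRNA gene Y7A9D.t2 with the noncoding gene Y7A9D.62, which share a peak (75.13, 76.8 and 155.4 in the same lists). Their distance was 0.066 and 0.076, as the Euclidean distance of log2 signals over the 3 lists.

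Genes for proteins that work with the RNase P, MRP and Y RNAs, and for the machinery that transcribes such genes, were examined in the same window, where 0.976% of all protein-coding genes had an IDR summit and 18.8% a pooled relaxed one. Of 5 listed names for RNase P and MRP proteins 4 matched the annotation, and none of these (popl-1, popl-4, popl-5 and popl-7) had a summit in either list, and neither did rop-1, the worm Ro60. Of 15 listed names for SNAPc, TBP, TFIIIB and TFIIIC 12 matched, of which 0 had an IDR summit and 3 had a pooled one, with signals of 46.36 at tftc-1, 32.83 at snpc-3.4 and 25.77 at tbp-1. All 5 listed RNA polymerase III genes matched, of which 0 had an IDR summit and 3 had a pooled one, with signals of 56.82 at rpac-19, 27.94 at rpc-1 and 27.17 at rpc-2. None of the matched genes of these lists thus had an IDR summit in the start window, where 4 of the 8 RNA genes had one. With a share of 0.976% over all protein-coding genes, lists this short would usually hold no IDR summit. Its absence is therefore not a result about these genes. Most of the matched genes had no pooled summit either, and the pooled signals were 25.77 to 56.82, beside the pooled median of 31.2.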

How the data were processed

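Anti-GFP ChIP-seq of LIR-3-GFP in L4 larvae gave 1 group of 2 replicates. The labels leave unsaid whether the cultures were separate, and no test was made. The authors deposited narrowPeak lists on ce11 for each replicate, the pooled replicates and IDR, per the submitters' file listing. Each peak's signal is a score that the authors deposited, and the deposited −log10 q-value was used only to describe peaks. A control experiment is named as a possible control, and its reads are not analysed here. The sources used here do not give the aligner, the peak caller, their versions or the read length. Lists on ce10 were not used. Depth is unknown, so no interval or floor is given.

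From these lists, summits (peak start plus deposited offset) were assigned to genes of Ensembl release 115, and ranks were taken within each list. The number of value columns left unmatched was 0. Sequence came from RefSeq WBcel235, whose coordinates are those of ce11. A word was counted once when neither strand held it again. SRP RNA genes were aligned globally (match 1, mismatch -1, gap opening -3, gap extension -1). The genes, partner lists and rules were chosen with earlier results of these data known. Named are the 8 genes, genes sharing their window or summit or holding them, up to 3 noncoding genes nearest in signal, and listed partners with an IDR summit or among the 3 highest pooled signals of a list. The list of SRP proteins and receptor is not reported here. Alternatives were windows of 1000 bp upstream or 100 bp either side, overlap of the whole peak by 1 bp, the stronger 276 IDR peaks, each replicate alone, other gene sets, and words of 36 or 100 bases. Summit counting was tested on simulated data. Python 3.11.15, numpy 2.4.6, pandas 2.3.3, matplotlib 3.10.9 and Biopython 1.88 were used.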

Additional observations from a re-analysis of the deposited data

How the results depend on the processing

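No paired analysis was possible because the samples form 1 group, with no second group to pair. The count of genes with an IDR summit, 4 of 8, was 4 with 1000 bp upstream, 3 within 100 bp of the start, 5 when any overlap of the peak counted, 4 in the stronger 276 peaks, and 4 to 4 over the 552 strongest peaks of each replicate alone (without replicate 1, without replicate 2). Extending the window to 200 bp past the gene end, chosen after the data were seen, gave 6. The pooled relaxed count of 5 fell outside 1.5 times only within 100 bp of the start, where it was 3; each replicate alone gave 5 to 6. The background of 2.45% for IDR summits was 1.68% with piRNA genes and 5.93% over noncoding genes, and that of 20.9% for pooled summits was 16.4% and 28.0%. For srpr-3, its place among the peaks was the strongest 24.1% in replicate 1 and 5.49% in replicate 2. With words of 36 or 100 bases in place of 50, the share found once was 14.8% or 54.3% in srpr-1.1 (23.3%), 28.8% or 54.5% in srpr-1.2 (41.2%), 31.4% or 70.5% in srpr-2.1 (38.8%) and 33.0% or 70.5% in srpr-2.2 (40.4%). Depth is unknown, so an absent peak does not show absent binding.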
